A study of Homo sapiens with 96 samples.

Results

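The DUSP, SPRY and SPRED genes encode inhibitors that growth factor and MAP kinase signalling induces against itself. 10 of them were chosen by name: DUSP1, DUSP4, DUSP5, DUSP6, SPRY1, SPRY2, SPRY4, SPRED1, SPRED2 and SPRED3. 9 of the 10 had a row in all 10 expression tables, which together held 23611 gene names, and DUSP1 was not analysed here. The choice followed a value seen in these data, the lower SPRY4 level in window T8-10 than in window T0-2 of nuclear input RNA. That contrast in nuclear input RNA is therefore given as a description with no p-values, and nothing is read from its counts. The same contrast in the other 3 kinds of RNA library is tested. The labels do not say whether the 4 kinds of library came from the same cultures. If they did, those tests are not independent of the choice.

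The cells were hTERT-RPE1, an established human line derived from retinal pigment epithelium and immortalised by the telomerase subunit TERT. One set of libraries held newly made (nascent) RNA and the matching input RNA, each from whole cells or nuclei. It covered asynchronous cells and 5 windows named T0-2, T2-4, T4-6, T6-8 and T8-10, with 2 libraries in each of the 24 groups. The window cells had been synchronised with 400 uM mimosine, a blocker of the entry into S phase, for 22 h. The units of the windows are not given, and an effect of mimosine and an effect of S phase cannot be told apart when a window is set against asynchronous cells. Between windows, an effect of the time since the mimosine block and one of the position in S phase cannot be told apart either. A second set measured cells transfected with LNA GapmeRs (130 to 150 pmol), which are antisense oligonucleotides and lead RNase H to the target RNA. These cells carried a control LNA or a knockdown of the non-coding RNA LINC00704 (listed as MANCR), LUCAT1 or MIAT. Synchronised knockdown cells were taken at points S0, S2, S4 and S6, with 2 libraries per group, and asynchronous knockdown cells had 3 libraries per target against 2 controls. Nothing in the labels ties the libraries of a group to separate cultures, and the spread behind each p-value may therefore be technical.

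The ERK cascade runs from a receptor through Ras and the kinases RAF and MEK to ERK, and active ERK switches on genes that then restrain it. DUSP6 is a cytoplasmic phosphatase that takes the activating phosphates off ERK, DUSP5 does so in the nucleus, and DUSP4 is a nuclear phosphatase with a wider choice of MAP kinases. The Sprouty proteins SPRY1, SPRY2 and SPRY4 act near the receptor and Ras, and the Sprouty-related proteins SPRED1, SPRED2 and SPRED3 hold back the step from Ras to RAF. Transcripts of several of these genes are short-lived, and their levels are widely used as a readout of ERK activity.

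The RefSeq promoter windows of 3 members are shown because their RNA stood highest in the first window or rose in a knockdown, as described below. Promoters were searched on both strands, in the 250 bases before each listed start, for TGACG (the core of the CREB and ATF element), TGANTCA (the AP-1 element), CCGGAA (an ETS element) and the CArG box of serum response factor. No 2 of these motifs overlap in a match shown here. Of 34943 promoter windows of the same length, 21.2% held TGACG, 6.59% TGANTCA, 14.5% CCGGAA and 1.16% a CArG box. A match is a description of letters, not a bound site. The sequences read 5′ to 3′ on the gene's strand, all minus, and capitals mark matches:
SPRY4 chr5:142324298-142324327: tcttcggagccgTGACGgactgaattccct
SPRY2 chr13:80341127-80341376: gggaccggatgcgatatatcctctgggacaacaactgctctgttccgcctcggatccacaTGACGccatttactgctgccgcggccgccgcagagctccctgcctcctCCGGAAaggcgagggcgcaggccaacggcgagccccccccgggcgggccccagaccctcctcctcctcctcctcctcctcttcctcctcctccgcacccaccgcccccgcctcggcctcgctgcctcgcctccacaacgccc
DUSP6 chr12:89352502-89352751: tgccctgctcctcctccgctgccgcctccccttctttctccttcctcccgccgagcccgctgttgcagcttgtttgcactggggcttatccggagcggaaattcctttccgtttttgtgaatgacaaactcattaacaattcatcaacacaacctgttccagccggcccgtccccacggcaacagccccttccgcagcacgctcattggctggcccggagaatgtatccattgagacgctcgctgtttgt
The SPRY4 window held 1 TGACG, 68 bases before the start, and a stretch of 30 bases around it is printed. The first of 3 SPRY2 windows held a TGACG 190 bases and a CCGGAA 142 bases before the start. The DUSP6 window held none of the 4 motifs. Of the other windows, the second of SPRY1 held a CCGGAA and 1 of SPRED3 held a TGANTCA, and those of SPRED1 and SPRED2 held none. DUSP4 and DUSP5 had no window here.

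In the GRCh38.p14 assembly, RefSeq places DUSP4 at chr8:29333064-29350684, DUSP5 at chr10:110497907-110511533 and DUSP6 at chr12:89347235-89352501. SPRY1 lies at chr4:123396795-123403760, SPRY2 at chr13:80335976-80341126 and SPRY4 at chr5:142310430-142325021. SPRED1 lies at chr15:38252836-38357249, SPRED2 at chr2:65307175-65432599 and SPRED3 at chr19:38388697-38399587. Levels are in RPKM, a read number corrected for library depth and for the length of the whole gene span, introns included. For mature RNA that scale lowers the value of long genes, so it does not rank genes of different span by number of transcripts. The lengths used ran from 4976 bases for SPRY2 to 121787 for SPRED2.

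Library depth, recovered from the steps between low RPKM values, ran from 6.39 to 28.6 M reads in the fraction tables, from 9.11 to 23.4 M reads in the synchronised knockdown tables and from 26.4 to 50.5 M reads in the asynchronous ones. The asynchronous whole-cell input libraries carried VIM at 245 to 327 RPKM and KRT18 at 13.8 to 18.1 RPKM. Of 8 pigment epithelium genes listed, 7 had a row, and 5 of these stayed under 0.5 RPKM in both libraries. OTX2 (1.14 to 1.24 RPKM) and PAX6 (1.06 to 1.22 RPKM) were present, whereas RPE65, a defining marker of the mature tissue, was at 0 and 0.0305 RPKM. MITF stood at 0.32 to 0.42 RPKM, and BEST1, TYR and PMEL did not exceed 0.0756 RPKM. Of 9 markers of other cell types, 4 had a row and none exceeded 0.0509 RPKM. Window replicates of whole-cell input RNA were less alike (Pearson r across genes 0.715 to 0.825) than its asynchronous replicates (0.974). Each targeted RNA was lower in its knockdown: in synchronised cells LINC00704 lay at 1.89 to 4.04 RPKM in controls and 0.550 to 1.61 after knockdown, LUCAT1 at 0.440 to 0.994 and 0.133 to 0.379, and MIAT at 0.243 to 0.324 and 0.0718 to 0.221. In bulk libraries, fewer cells of a kind and less RNA per cell cannot be told apart.

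In asynchronous whole-cell input RNA, SPRY2 had the highest level of the 9 genes (33.9 and 31.6 RPKM), followed by DUSP5 (10.9 and 11.1 RPKM). SPRY4 (5.26 and 4.72), DUSP4 (4.54 and 3.87) and DUSP6 (4.02 and 3.37 RPKM) followed, and DUSP4 and DUSP6 overlapped. SPRED1 (1.55 and 1.64) stood above SPRED2 (1.27 and 1.29) and SPRED3 (1.27 and 1.24 RPKM), which overlapped each other. SPRY1 was lowest (0.228 and 0.264 RPKM). This order is one of RPKM over whole gene spans, which lowers long genes such as SPRED1 and SPRED2, and not one of transcript number. SPRY1 reached 0.5 RPKM in at most 1 of the 12 libraries of a fraction table, below the minimum of 2 libraries needed for testing, so 8 members were tested there and 9 in the knockdown tables.

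The largest differences among the windows lay between T0-2 and everything later. In nascent RNA, SPRY4, DUSP5, DUSP6, SPRY2 and, with a smaller difference, SPRED2 stood highest in T0-2 and lower from T2-4 on. DUSP4, SPRED1 and SPRED3 showed no common course. In nuclear nascent RNA, DUSP5 and DUSP6 fell from T0-2 to T8-10 past the test's threshold (adjusted p under 0.05 by limma with Benjamini-Hochberg adjustment over all genes tested).

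SPRY4, the Sprouty protein with the largest late-to-early difference, stood at 5.80 and 6.40 RPKM in T0-2 of nuclear nascent RNA (replicates 1 and 2). It then stood at 1.79 and 1.59 in T2-4, up to 1.98 in T4-6, 0.984 and 1.04 in T6-8, and 0.777 and 0.657 RPKM in T8-10. Both T0-2 libraries lay above all 8 later libraries and above the asynchronous libraries (0.514 and 3.20 RPKM), which themselves differed widely. In whole-cell nascent RNA, SPRY4 stood at 7.76 and 4.49 RPKM in T0-2, between 0.710 and 1.70 in the 3 middle windows, and at 0.754 and 0.514 in T8-10. In whole-cell input RNA the T0-2 libraries (4.68 and 6.42 RPKM) overlapped the asynchronous ones (5.26 and 4.72), and the T8-10 libraries stood at 0.476 and 0.907. In nuclear input RNA, where the gene was chosen, SPRY4 stood at 5.57 and 5.64 RPKM in T0-2 and at 0.784 and 0.420 in T8-10. The mean in T0-2 was 9.67 times that in T8-10 in whole-cell nascent RNA, 8.02 times in whole-cell input, 8.51 times in nuclear nascent and 9.31 times in nuclear input RNA. An antisense gene, SPRY4-AS1, shares the locus, and whether reads were counted by strand is not stated in the labels. SPRY4-AS1 itself stood between 0.0668 and 0.209 RPKM in nuclear nascent RNA, a value divided by a longer span than that of SPRY4. In reads it had 841 and 934 in T0-2 against 1813 and 2025 for SPRY4, and 851 and 698 in T8-10 against 279 and 137. How many of its reads lie within SPRY4 is not given, so a contribution to the SPRY4 values was not tested.

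DUSP5, the nuclear ERK phosphatase, stood at 16.9 and 18.6 RPKM in T0-2 of nuclear nascent RNA and at 4.68 and 4.42 in T2-4. It stood at 6.75 and 5.80 in T4-6, 2.79 and 2.80 in T6-8, and 4.02 and 2.42 RPKM in T8-10, against 3.16 and 6.40 in asynchronous cells. The T0-2 libraries were above the other 10. In whole-cell nascent RNA, DUSP5 stood at 37.3 and 19.7 RPKM in T0-2 and at 5.33 and 4.11 in T8-10, and in whole-cell input RNA at 26.7 and 13.9, then 4.20 and 2.77. Replicate 1 was the higher library in every window of both whole-cell tables, and the T0-2 libraries still lay above all later ones. DUSP6, the cytoplasmic ERK phosphatase, stood at 9.16 and 12.1 RPKM in T0-2 of nuclear nascent RNA, at 1.19 to 3.04 in the 3 middle windows and at 2.00 and 0.738 in T8-10. In whole-cell nascent RNA it stood at 23.6 and 7.81 RPKM in T0-2 and at 3.47 and 2.32 in T8-10. In whole-cell input RNA the replicates of DUSP6 parted (16.3 and 3.18 RPKM in T0-2, 2.61 and 0.781 in T8-10). There the T0-2 library of replicate 2 lay below the T2-4 library of replicate 1 (4.59), so the windows overlapped.

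SPRY2, the Sprouty gene with the highest RPKM here, stood at 16.5 and 12.6 RPKM in T0-2 of nuclear nascent RNA. It stood at 2.97 to 7.31 in the 8 later libraries, with no overlap. In whole-cell nascent RNA its T0-2 libraries (51.3 and 22.4 RPKM) overlapped those of T6-8 (22.8 and 8.35). In whole-cell input RNA, SPRY2 was already high in asynchronous cells (33.9 and 31.6 RPKM), stood at 37.6 and 23.9 in T0-2, and at 6.23 to 18.3 in the 8 later libraries. SPRED2, which restrains the step from Ras to RAF, moved less: 2.44 and 2.71 RPKM in T0-2 of nuclear nascent RNA and 0.955 to 1.36 in the later libraries. SPRED1 stood at 1.89 and 2.43 RPKM in T0-2 there and at 0.973 to 1.88 later, just below the lower T0-2 library. DUSP4 (1.76 and 2.37 RPKM in T0-2, 1.73 and 2.82 in T8-10) and SPRED3 (0.873 and 0.440, then 0.440 and 1.18) overlapped between the first and the last window. In T2-4 both DUSP4 libraries (1.05 and 0.737 RPKM) lay below both T0-2 libraries.

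**Figure D1:**
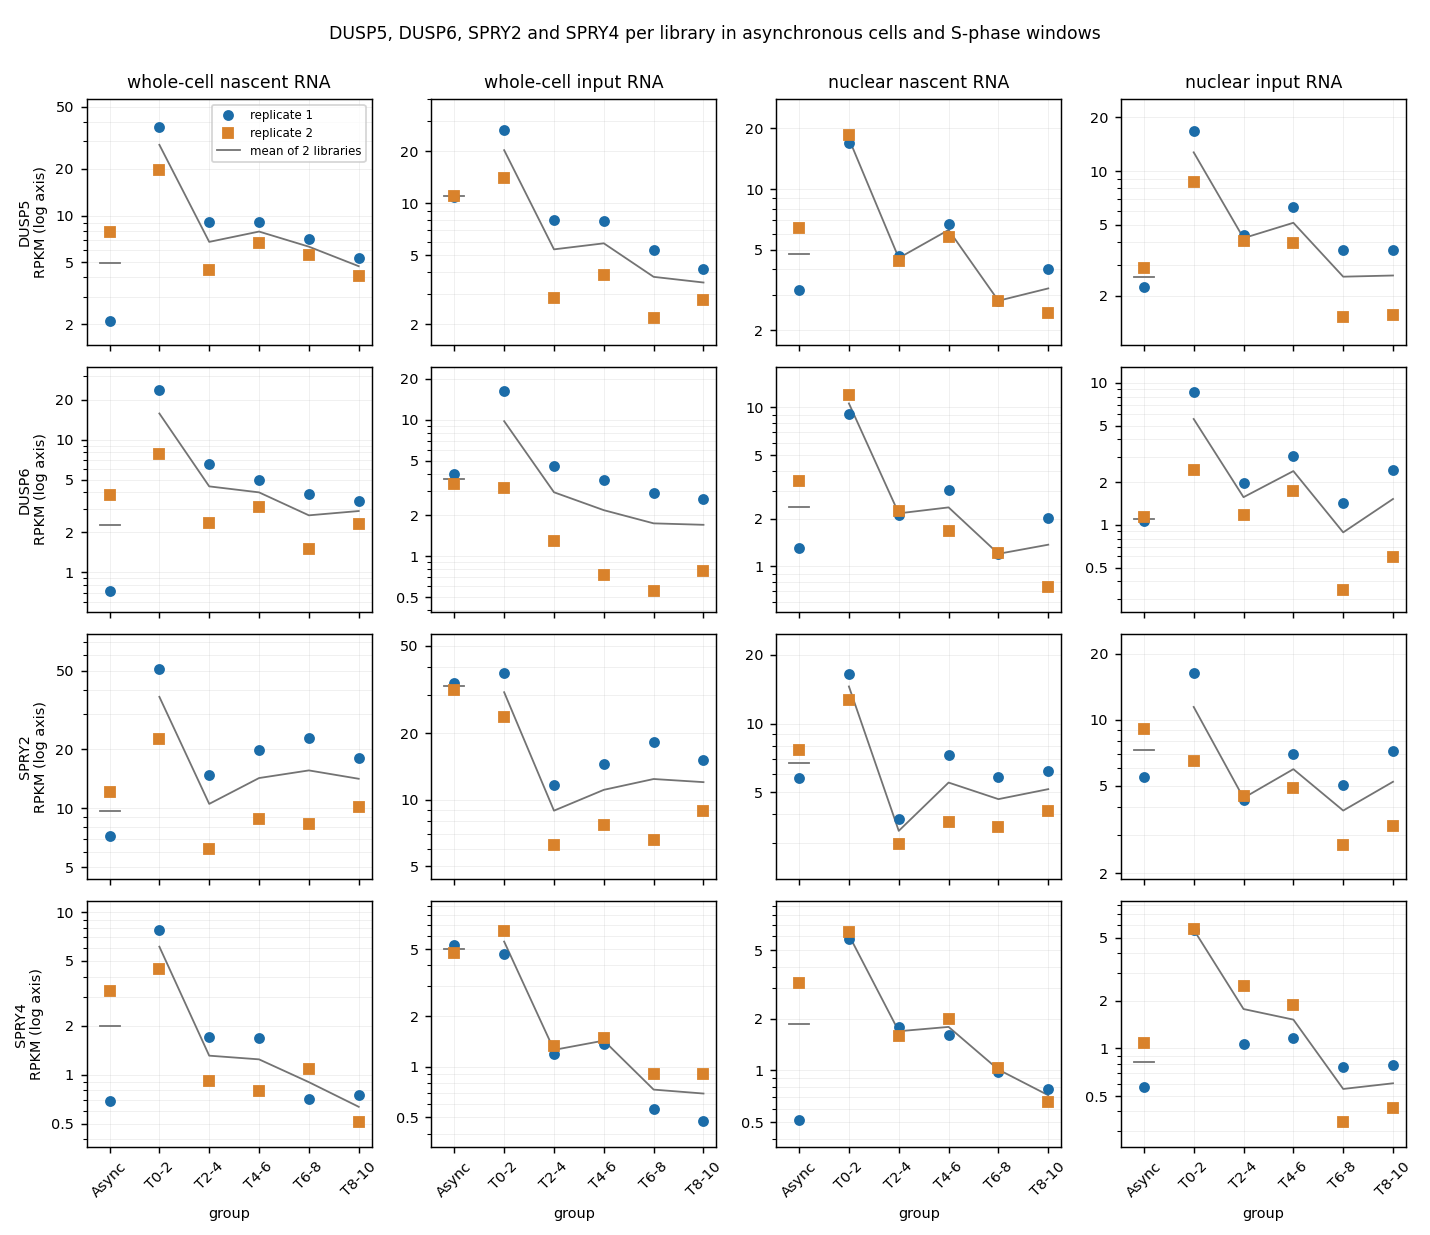
RPKM (log axis) of DUSP5, DUSP6, SPRY2 and SPRY4 in each library of the 4 fraction tables, by group from asynchronous cells to window T8-10, with points for replicates 1 and 2 and lines for means of 2. SPRY4, DUSP5 and DUSP6 had their highest group mean in T0-2 in all 4 tables, and SPRY4 in nuclear nascent RNA ended at 0.777 and 0.657 RPKM in T8-10.

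Both T0-2 libraries lay above all 8 later window libraries for 6 of 8 members in nuclear nascent RNA (DUSP5, DUSP6, SPRY2, SPRY4, SPRED1, SPRED2), where 6.65% of all tested genes did. In whole-cell nascent RNA 4 of 8 did (DUSP5, DUSP6, SPRY4, SPRED2), against 2.80% of genes. In whole-cell input RNA 5 of 8 did (DUSP4, DUSP5, SPRY2, SPRY4, SPRED2), against 1.66% of genes. In nuclear input RNA 3 of 8 did (DUSP5, SPRY4, SPRED2), against 2.98% of genes, and that count includes the chosen value. The counts in the other kinds of RNA are not independent of the choice if all came from the same cultures.

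Tested as T8-10 minus T0-2, DUSP5 in nuclear nascent RNA fell by 2.42 ± 0.34 on the log2(RPKM + 0.25) scale (SE, adjusted p = 0.0342) and DUSP6 fell by 2.85 ± 0.47 (adjusted p = 0.0471). These 2 of 8 members were called, where 0.358% of all genes were. If the nuclear input RNA came from the same cultures, these calls are not independent of the choice of members. SPRY4 differed by -2.72 ± 0.53 (adjusted p = 0.0708), SPRED2 by -1.11 ± 0.20 (0.0588) and SPRY2 by -1.46 ± 0.38 (0.111), none of them past the threshold. The members' median difference was -1.29, and that of all genes 0.15. With 2 libraries per group the calls were not stable: both were lost without any 1 window library other than T8-10 replicate 1. Without that library 4 were called (DUSP5, DUSP6, SPRY4, SPRED2), and without both asynchronous libraries the 2 called were DUSP5 and SPRY4.

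In whole-cell RNA no member and no gene passed the same test, 0% in nascent and 0% in input RNA. In nascent RNA 767 genes and 4 members had an unadjusted p under 0.05 by limma, and in input RNA 380 genes and 2 members did. The estimates were close to those of nuclear RNA: SPRY4 differed by -2.82 ± 0.58 in nascent (adjusted p = 0.225) and -2.65 ± 0.32 in input RNA (0.123). DUSP5 differed by -2.47 ± 0.57 (0.301) and -2.41 ± 0.65 (0.878), and DUSP6 by -2.17 ± 0.77 (0.512) and -2.13 ± 1.07 (1). The median difference was -1.04 over the 8 members and 0.12 over all genes in nascent RNA, and -1.05 and 0.09 in input RNA. In the 10 window libraries alone, with the replicate block, a choice made after seeing that equal-numbered window libraries deviated together, more was called. In input RNA 5 members passed (DUSP5, DUSP6, SPRY2, SPRY4, SPRED2), where 9.73% of genes did. In nascent RNA 4 passed (DUSP5, DUSP6, SPRY2, SPRY4), where 2.14% of genes did.

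In nuclear input RNA, the contrast behind the choice, SPRY4 differed by -2.82 ± 0.43, DUSP5 by -2.21 ± 0.50, DUSP6 by -1.70 ± 0.73, SPRY2 by -1.05 ± 0.53 and SPRED2 by -1.03 ± 0.18 (SE). The lowest and highest of the other 3 were SPRED3 at -0.45 and DUSP4 at 0.23. By the threshold used in the other tables the count was 1 of 8 members beside 0.415% of genes, and with the replicate block, for which these libraries are paired, 5 of 8 beside 22.2% of genes. Because this contrast chose the members, neither count is read as support.

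**Figure D2:**
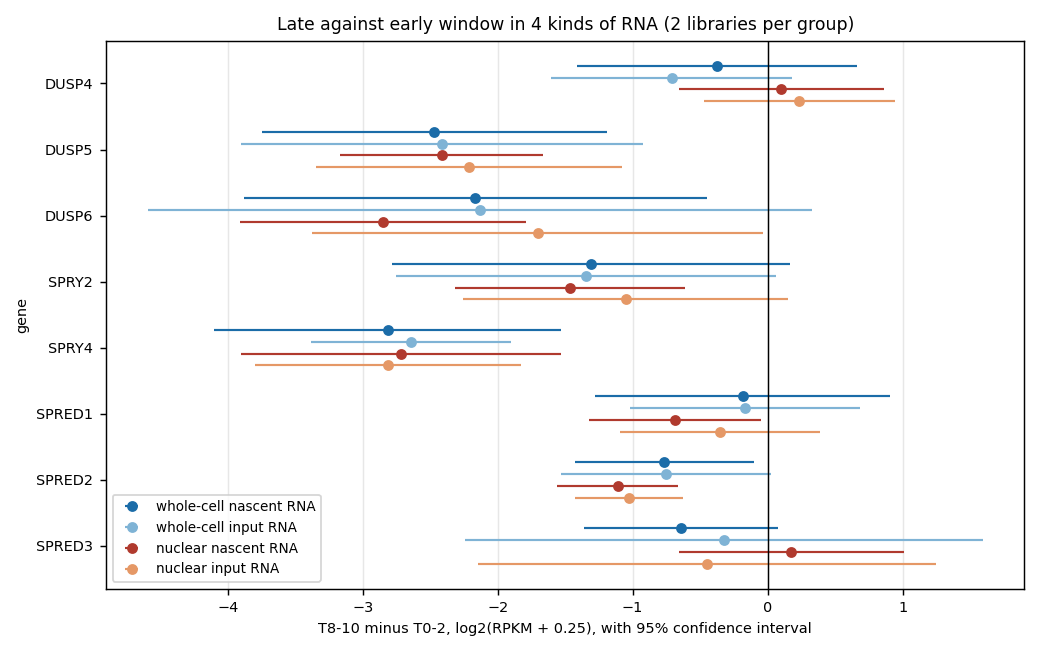
Difference T8-10 minus T0-2 on the log2(RPKM + 0.25) scale for the 8 tested members in the 4 fraction tables, with bars for 95% confidence intervals. DUSP5, DUSP6 and SPRY4 lie between -1.70 and -2.85 in all 4 tables, and DUSP4 in nuclear nascent RNA lies at 0.10.

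Set against asynchronous cells, the first window differed by kind of RNA (values given as a description). In whole-cell nascent RNA, T0-2 exceeded the asynchronous libraries by 2.65 ± 0.57 on the log2 scale for DUSP5, 2.80 ± 0.77 for DUSP6, 1.83 ± 0.66 for SPRY2 and 1.76 ± 0.58 for SPRY4. In whole-cell input RNA the same differences were 0.80 ± 0.65, 0.94 ± 1.07, -0.13 ± 0.61 and 0.13 ± 0.32. In nuclear nascent RNA they were 1.92 ± 0.34, 2.17 ± 0.47, 1.09 ± 0.38 and 1.97 ± 0.53. The gap between nascent and input RNA was not tested, because the tables were scaled separately. The asynchronous replicates of nascent RNA also stood apart for these genes, with DUSP6 at 0.718 and 3.84 RPKM in whole-cell and 1.30 and 3.46 RPKM in nuclear nascent RNA, replicate 1 lower each time.

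With all 5 windows averaged and no replicate block, 0 of the 8 members were called against asynchronous cells in any of the 4 tables. The shares of all genes called were 4.57% in nuclear input, 4.50% in nuclear nascent, 0.0305% in whole-cell input and 0.406% in whole-cell nascent RNA. In whole-cell input RNA 2 members and 865 genes had an unadjusted p under 0.05 by limma. In the other 3 tables no member did, where 1844, 1987 and 1387 genes did. SPRY4 in whole-cell input RNA came nearest, at -1.65 ± 0.25 (95% interval -2.23 to -1.08, adjusted p = 0.099), and SPRY2 differed there by -1.33 ± 0.48 (adjusted p = 0.437). The 95% interval of SPRY4 ran from -1.12 to 0.88 in whole-cell nascent RNA. With the replicate block, for which the nuclear input libraries are paired, 1 of 8 was called in nuclear input RNA (SPRED1), where 34.4% of genes were. A replicate block also called SPRY4 in whole-cell input RNA, although the numbers of that table do not pair all its libraries.

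Across the 12 nuclear nascent libraries, the Pearson r of log2(RPKM + 0.25) between DUSP6 and DUSP5 was 0.98, between DUSP6 and SPRED2 0.96, and between SPRY4 and DUSP5 0.94. SPRED3 had an r of -0.23 with DUSP6 and 0.01 with SPRY4. The 5 genes outside the members most like SPRY4 were TMEM200A (0.959), CRY1 (0.926), ARHGAP31 (0.924), RPS6KA3 (0.922) and CORO2B (0.920). Those most like DUSP6 were RPS6KA3 (0.952), SLC20A1 (0.947), ARHGAP31 (0.944), ABHD2 (0.937) and TMEM200A (0.924). RPS6KA3 encodes a kinase that ERK activates, and CRY1 a repressor of the circadian clock. These values describe the likeness of 2 profiles over libraries that share windows and depth.

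The synchronised control cells of the knockdown set gave another course. SPRY1, the Sprouty member too low to test in the fraction tables, stood at 3.53 and 3.89 RPKM at S0. It stood at 0.238 and 0.381 at S2, 0.349 and 0.472 at S4, and 0.513 and 0.505 RPKM at S6. Both S0 libraries lay above the 6 later ones, a description without the share of all genes. SPRY1 fell by 2.38 ± 0.41 from S0 to S6 (adjusted p = 0.0149), 1 of 9 members called where 0.871% of genes were. That call was lost without any 1 of the S0 and S6 control libraries, and in the fit of the same libraries with the LINC00704 table. SPRY1 was likewise high at S0 after LINC00704 knockdown (3.25 and 3.53 RPKM) and MIAT knockdown (2.55 and 4.12), and stood at 1.06 and 3.82 RPKM after LUCAT1 knockdown. At S2 it stood between 0.312 and 0.786 RPKM in these knockdowns, and at S4 one LINC00704 library kept 2.58 RPKM against 0.370 in the other. In T0-2 of the fraction tables SPRY1 stood between 0.00727 and 0.373 RPKM.

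The members that were high in T0-2 differed little between S0 and S6 in the control cells. SPRY4 stood at 1.75 and 3.41 RPKM at S0 and 2.27 and 2.70 at S6, a difference of 0.01 ± 0.46 (95% interval -0.99 to 1.01). DUSP5 stood at 9.88 and 18.7, then 9.56 and 14.2 RPKM (difference -0.22 ± 0.52), and DUSP6 at 3.66 and 7.63, then 2.88 and 7.71 RPKM (-0.15 ± 0.63, 95% interval -1.52 to 1.22). In each of these 3 genes replicate 2 was the higher control library at every point. The intervals were wide, and how the S points relate in time to the T windows is not given.

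After LUCAT1 knockdown in synchronised cells, averaged over the 4 points, DUSP6 and SPRED1 rose and SPRED3 fell. DUSP6 stood at 3.66 and 7.63 RPKM in controls and 9.49 and 9.17 in knockdown cells at S0, and at 1.66 and 6.17 against 8.24 and 16.2 at S2. At S4 it stood at 2.24 and 6.46 against 9.56 and 13.2, and at S6 at 2.88 and 7.71 against 4.11 and 5.59 RPKM. Both knockdown libraries lay above both controls at S0, S2 and S4, and between them at S6, a description without the share of all genes. The mean difference was 1.01 ± 0.32 (adjusted p = 0.0336). Equal-numbered control libraries deviated together across the points (r between points 0.072 to 0.753, median 0.528), which the fit did not model. The p-values of the synchronised knockdown tests averaged over the 4 points may therefore be too small. SPRED1 stood at 0.786 to 1.53 RPKM in controls and 1.05 to 3.69 in knockdown cells, a rise of 0.60 ± 0.17 (adjusted p = 0.0256). Its knockdown libraries stood apart at S0 (3.69 and 1.521 RPKM) and S2 (2.855 and 1.468), and the lower one at S0 lay between the controls (1.531 and 1.334). SPRED3 fell by 0.49 ± 0.17 (adjusted p = 0.0499), from 0.579 to 1.75 RPKM in controls to 0.406 to 1.48. By point, SPRED3 differed by -0.485 at S0, -0.733 at S2, -0.679 at S4 and -0.053 at S6 (SE 0.341 each). SPRY2 differed by 0.70 ± 0.26 without passing (adjusted p = 0.0632), SPRY4 by 0.27 ± 0.23 and DUSP5 by 0.30 ± 0.26.

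These 3 of 9 members stood against 27.2% of all genes called in that comparison, so the count does not set the members apart. The members' median difference was 0.27 and that of all genes 0.11. Scaling each library to its median, which moved the all-gene median to -0.05, left SPRED3 alone past the threshold. Quantile normalization called DUSP6, SPRY2 and SPRED3 but not SPRED1, and a pseudocount of 1, no filter or a filter of 1 RPKM called DUSP6 and SPRED1 but not SPRED3. No member was called without Control_S2 replicate 1, Control_S4 replicate 1, Control_S6 replicate 1, or 1 of the knockdown libraries at S4 or at S6. The test of whether the knockdown effect differed between points called 0% of genes, and 0 of 9 members (39 genes and no member at an unadjusted p under 0.05 by limma), although DUSP6 differed by 1.76 ± 0.63 at S2 and by 0.02 ± 0.63 at S6.

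**Figure D3:**
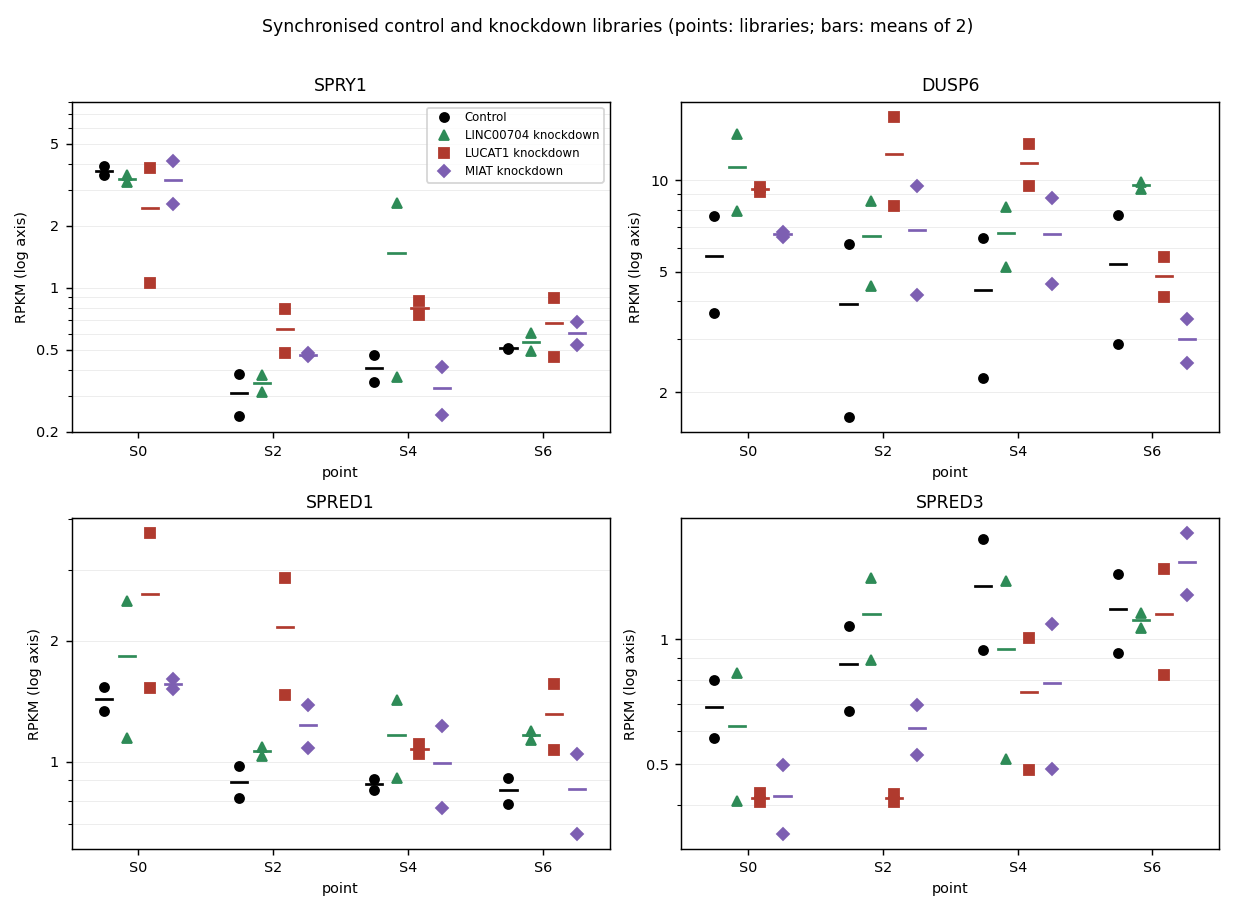
RPKM (log axis) of SPRY1, DUSP6, SPRED1 and SPRED3 in each synchronised control and knockdown library at S0, S2, S4 and S6, with bars for means of 2. Control SPRY1 drops from 3.53 and 3.89 RPKM at S0 to 0.238 and 0.381 at S2, and DUSP6 after LUCAT1 knockdown lies above both controls at S0, S2 and S4.

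LINC00704 knockdown and MIAT knockdown in synchronised cells shared these same 8 control libraries, so their values are given side by side. After LINC00704 knockdown DUSP6 stood between 4.50 and 14.2 RPKM and differed from controls by 0.89 ± 0.32 (adjusted p = 0.269). SPRY2 differed by 0.49 ± 0.29 and SPRED1 by 0.27 ± 0.14. None of 9 members was called, where 0.0212% of genes were, and 1 member and 1559 genes had an unadjusted p under 0.05 by limma. That share rested on 1 library: without the LINC00704 library at S0 in which SPRED1 stood at 1.14 RPKM, 1035 genes in place of 2 were called, and SPRED1 with them. After MIAT knockdown DUSP6 stood between 2.49 and 9.55 RPKM and differed by 0.32 ± 0.34, with SPRY2 at 0.50 ± 0.27 and SPRY4 at -0.21 ± 0.28. None of 9 was called there, where 7.63% of genes were, and no member but 2357 genes had an unadjusted p under 0.05 by limma. The tests by point called 0% of genes and 0 of 9 members in both, with 37 and 110 genes and no member at an unadjusted p under 0.05 by limma.

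In asynchronous cells DUSP5 and DUSP6 rose after MIAT knockdown. The 3 asynchronous comparisons share their 2 control libraries, so each is given on its own values. After MIAT knockdown, DUSP6 stood at 2.61, 2.57 and 2.95 RPKM against 1.24 and 1.21, a rise of 1.01 ± 0.09 (adjusted p = 6.86e-04). DUSP5 stood at 3.96, 3.97 and 3.91 RPKM against 2.49 and 2.54, a rise of 0.60 ± 0.08 (adjusted p = 0.00237). The groups did not overlap for either gene, but the share of all genes without overlap is not given here, so nothing is read from it. These 2 of 9 members were called where 43.7% of genes were, a larger share, so the count does not set the members apart. Over all genes 1155 rose and 2861 fell past the threshold. The median difference was -0.12 over all genes and 0.02 over the members. The calls of DUSP5 and DUSP6 held without any 1 library. The other 7 members did not pass, among them SPRY4 at 0.20 ± 0.09, SPRY2 at -0.21 ± 0.10 and SPRY1 at -0.26 ± 0.18.

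After LUCAT1 knockdown in asynchronous cells, SPRY4 stood at 0.777, 3.08 and 2.55 RPKM against 0.604 and 0.620 in controls. DUSP5 stood at 3.31, 9.11 and 7.83 RPKM against 2.58 and 2.63, and DUSP6 at 2.19, 4.06 and 2.69 against 1.28 and 1.25. Every knockdown library exceeded both controls for these 3 genes, and replicate 1 was the nearest to them. Nothing is read from that separation, because the share of all genes that show it is not given here. LUCAT1 itself stood at 0.311, 0.128 and 0.124 RPKM in the same libraries against 0.469 and 0.495, so replicate 1 also kept the most of the target. MIAT, not the target there, stood at 0.258, 0.0936 and 0.147 RPKM against 0.393 and 0.357, also highest in replicate 1 among the knockdown libraries. In the other asynchronous knockdowns LUCAT1 lay above its controls, at 0.784 to 1.07 RPKM for LINC00704 and 0.670 to 0.834 for MIAT. A link between these values was not tested. The differences were 1.30 ± 0.49 for SPRY4 (adjusted p = 0.206), 1.18 ± 0.42 for DUSP5 (0.19) and 1.05 ± 0.27 for DUSP6 (0.124). None of 9 members passed, where 0.209% of genes did, and 3 members and 2100 genes had an unadjusted p under 0.05 by limma. Without knockdown replicate 1, 4 members (DUSP5, DUSP6, SPRY4, SPRED1) and 4563 genes were called.

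After LINC00704 knockdown in asynchronous cells, DUSP5 stood at 4.66, 5.14 and 5.79 RPKM against 2.51 and 2.54, a difference of 0.97 ± 0.16 (adjusted p = 0.141). DUSP6 stood at 2.01, 2.27 and 3.41 RPKM against 1.24 and 1.21, a difference of 0.90 ± 0.23 (adjusted p = 0.203). SPRY4 stood at 0.758, 0.928 and 0.750 RPKM against 0.586 and 0.597, a difference of 0.33 ± 0.14. The groups did not overlap for these 3 genes, but the share of all genes without overlap is not given here, so nothing is read from it. None of 9 was called, where 0.0557% of genes were, and 2 members and 1115 genes had an unadjusted p under 0.05 by limma. SPRED1, SPRED2, SPRED3 and SPRY1 lay between -0.06 and 0.07.

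The authors' deposited table of these asynchronous comparisons gave smaller adjusted values. In the authors' deposited table DUSP6 had an FDR of 0.00272 for LINC00704, 1.83e-05 for LUCAT1 and 4.76e-14 for MIAT knockdown. In the authors' deposited table DUSP5 had an FDR of 0.00545, 1.03e-07 and 6.11e-06, and SPRY4 after LUCAT1 knockdown a log2 fold change of 1.65 with an FDR of 1.40e-11. In the authors' deposited table SPRED1 also rose after LUCAT1 knockdown (log2 fold change 0.599, FDR 0.00897). After MIAT knockdown the authors' deposited table has SPRY1 lower (-0.294, FDR 8.26e-04) and SPRED3 lower (-0.209, FDR 0.0120). The test behind that table is not stated there.

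**Figure D4:**
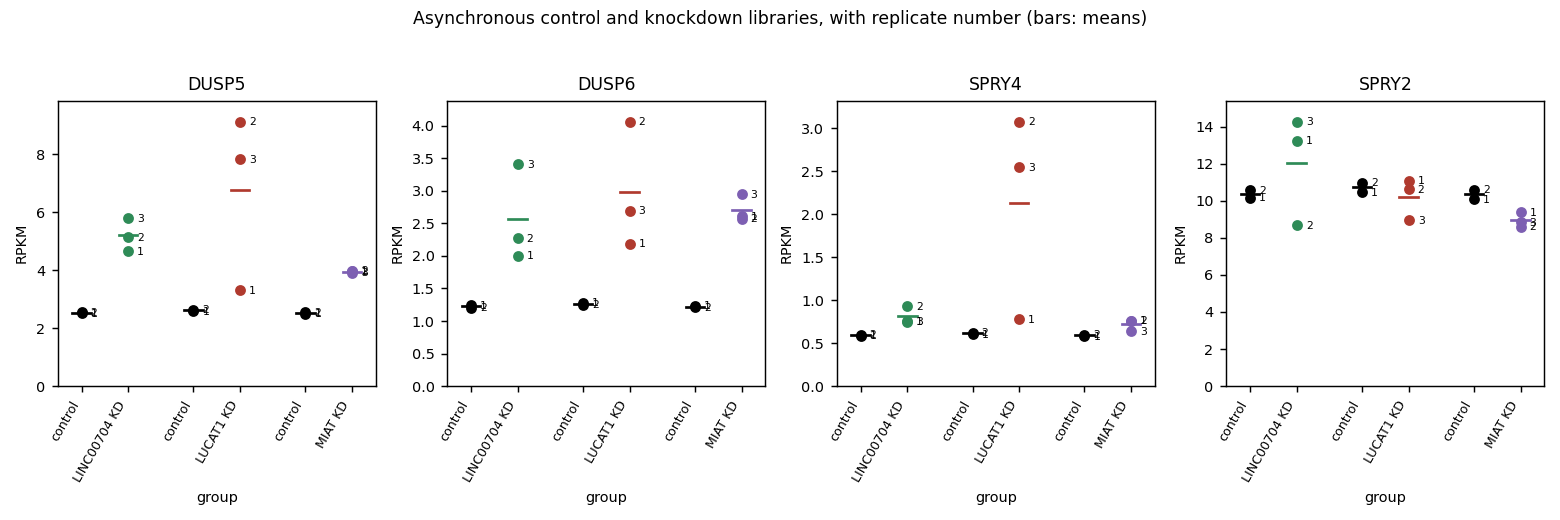
RPKM of DUSP5, DUSP6, SPRY4 and SPRY2 in each asynchronous library of the 3 knockdown tables, with points numbered by replicate and bars for means. The same 2 control libraries serve all 3 knockdowns, SPRY4 after LUCAT1 knockdown spreads from 0.777 to 3.08 RPKM, and MIAT knockdown libraries hold DUSP6 at 2.57 to 2.95 RPKM.

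The other genes of the pathway were read from 4 lists. Of 12 ERK output genes, which ERK activity induces, 10 were tested in nuclear nascent RNA, and from T0-2 to T8-10 only EPHA4, an ephrin receptor, was called, falling by 1.03 ± 0.17 (adjusted p = 0.0471), beside the 0.358% of all genes called there. The list's median difference was -0.81 there, against 0.15 over all genes, and -0.65, -0.62 and -0.48 in whole-cell nascent, whole-cell input and nuclear input RNA. None of 17 genes of the cascade from adaptor to ERK was called in that contrast in nuclear nascent RNA, and their median was -0.004. Of 6 other MAP kinase phosphatases tested, DUSP10, which acts mainly on the stress kinases p38 and JNK, was the 1 called between the windows and asynchronous cells. DUSP10 rose by 1.37 ± 0.18 in nuclear input (adjusted p = 0.00895) and 1.38 ± 0.19 in nuclear nascent RNA (adjusted p = 0.00699), beside 4.57% and 4.50% of all genes. No gene of the 4 lists was called in either whole-cell table.

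After LUCAT1 knockdown in synchronised cells, PHLDA1 rose by 0.97 ± 0.29 among 10 ERK output genes tested, while the immediate early factor EGR1 fell by 0.65 ± 0.17 and FOSL1, a Fos family subunit of AP-1, fell by 0.56 ± 0.20. Of 17 cascade genes 3 rose, among them NRAS by 0.65 ± 0.16, and 2 fell, MAPK3 (ERK1) by 0.61 ± 0.19 and MAP2K1 (MEK1) by 0.57 ± 0.13. The phosphatases DUSP2, DUSP16 and DUSP22 rose, 3 of 6, and of 9 other restraints CBLB and CBL, ubiquitin ligases for receptors, rose by 0.58 ± 0.15 and 0.55 ± 0.11. After MIAT knockdown in asynchronous cells, 7 of 14 cascade genes fell, among them MAP2K2 (MEK2) by 0.72 ± 0.11 and the adaptor GRB2 by 0.56 ± 0.08, and SOS1 rose by 0.27 ± 0.08. EGR1 rose by 0.77 ± 0.24 and PHLDA1 by 0.70 ± 0.14, and EPHA2 fell by 0.54 ± 0.12, among 9 ERK output genes. Of 9 other restraints 3 rose, among them ERRFI1, an inhibitor of the EGF receptor, by 0.63 ± 0.18, and 1 fell. After MIAT knockdown in synchronised cells the Ras GTPase activator RASAL2 rose by 0.55 ± 0.14, and no other gene of the lists was called. These counts stand beside the 27.2%, 43.7% and 7.63% of all genes called in the same comparisons.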

How the data were processed

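RNA was sequenced in hTERT-RPE1 cells, and 91 of 96 samples had expression columns; 5 chromatin samples were not analysed here. The authors deposited RPKM per gene in 10 separately scaled tables, per the file headers, with gene lengths that match whole gene spans. The authors' deposited tables of asynchronous cells also give log2 fold changes, p-values and FDR values. Per the submitters' processing notes, STAR 2.5.3, featureCounts 1.6.1, HOMER 4.10.3 and edgeR were used with hg38 (Bowtie2 2.3.4.3 and GRCh38 for 85 samples). The series' design text calls the knockdown RNA-seq strand-specific; the annotation and the strand setting of the counting are not stated.

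Steps between low RPKM values gave whole reads for 100% of values up to 200 reads (tolerance 0.05), and the depth. Genes that reached 0.5 RPKM in 2 or more libraries of a table were tested on log2(RPKM + 0.25) with limma 3.58.1 (R 4.3.3, eBayes with trend, 1 mean per group, Benjamini-Hochberg over all genes tested, called at adjusted p under 0.05), only within a table. Fold changes on that scale understate low genes. The steps were tested on simulated data. Tables and plots used Python 3.11.15, pandas 2.3.3 and matplotlib 3.10.9. Equal replicate numbers were checked for pairing by the correlation of deviations from group means. In nuclear input RNA all 15 pairs of groups gave 0.627 to 0.861, so these numbers pair the libraries, and the replicate block is reported beside that table's results. The members, the 4 pathway lists and the marker lists were chosen with earlier results of these data known. All members are named. Pathway genes are named only where they passed, at most 4 per list and comparison, and not every gene that passed is named. Likeness takes the 5 genes with the highest r.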

Additional observations from a re-analysis of the deposited data

How the results depend on the processing

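No result named here changed its direction past a threshold under any alternative run. Counts are members called. For T8-10 against T0-2 in nuclear nascent RNA (2 called), a pseudocount of 0.1 gave 1, a pseudocount of 1, quantile normalization and median scaling gave 4 each, no filter on RPKM gave 0, the replicate block gave 1, and leaving out 1 library gave 0 to 4. In nuclear input RNA, a description only (1 past the threshold), a pseudocount of 0.1 gave 0, quantile normalization and median scaling gave 2, the replicate block gave 5, and leaving out 1 library gave 0 to 1. The replicate block gave 1 for all windows against asynchronous cells in nuclear input RNA and 1 in whole-cell input RNA (SPRY4), and 1 for T8-10 against T0-2 in whole-cell input RNA. In the window libraries alone it gave 5 in whole-cell input and 4 in whole-cell nascent RNA.

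For LUCAT1 knockdown in synchronised cells (3 called), median scaling gave 1, a pseudocount of 1, no filter and a filter of 1 RPKM gave 2, quantile normalization gave 3 with SPRY2 in place of SPRED1, and leaving out 1 library gave 0 to 3; for LINC00704 leaving out 1 library gave 0 to 1. For S6 against S0 the fit with the LINC00704 table gave 0 and leaving out 1 library 0 to 1. In asynchronous cells the libraries share only a number, and the replicate block gave 1 for LINC00704 (DUSP5) and 3 for LUCAT1 (DUSP5, DUSP6, SPRY4); leaving out 1 library gave 0 to 4 for LUCAT1. Synchronised knockdowns had no replicate block because their column numbers do not match the labels; in the control libraries alone it left SPRY1 called. The replicate block changed no other count of members. Apart from fewer genes tested, the cause of these changes was not tested.

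Over all genes, the replicate block moved the calls from 40 to 2142 and from 440 to 3314 in nuclear input RNA, from 5 to 153 for LINC00704 and from 20 to 482 for LUCAT1 knockdown in asynchronous cells. In whole-cell RNA it moved all windows against asynchronous cells from 3 to 191 in input and from 41 to 278 in nascent RNA, and T8-10 against T0-2 from 0 to 5 in each. For nuclear nascent RNA, T8-10 against T0-2, the 35 genes became 18 to 81 under other pseudocounts and scalings, 58 with the block, 7 with window libraries only and 6 with no filter. No filter gave 1289 in place of 440 genes in nuclear input RNA and 244 in nuclear nascent RNA (quantile normalization 229), and 1577 in place of 727 for MIAT in synchronised cells, where a filter of 1 RPKM gave 469. Leaving out 1 library gave 1 to 1035 genes for LINC00704 (2) and 1446 to 3770 for LUCAT1 (2680) in synchronised cells, 2 to 669 for T8-10 against T0-2 (35) and 4 to 591 for all windows (440) in nuclear nascent RNA, and 1571 to 4632 for MIAT in asynchronous cells (4016). S6 against S0 fell from 86 to 7 genes in the LINC00704 table. Other settings gave 0 to 9 genes for LINC00704 and 0 to 48 for LUCAT1 in asynchronous cells, 0 to 6 in whole-cell input and 20 to 94 in whole-cell nascent RNA for all windows. Low genes such as SPRED3 and SPRY1 rest on few reads in some libraries and on 2 libraries per group. What limits their differences was not tested.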

Other observations

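Across the 16 synchronised libraries of the LUCAT1 table, the 5 genes outside the members most like SPRY4 in log2(RPKM + 0.25) were MCL1 (Pearson r 0.850), FUNDC2 (0.829), EGR3 (0.825), SURF1 (0.804) and EIF3F (0.800). MCL1 encodes a short-lived survival protein of the BCL2 family and EGR3 an immediate early transcription factor. Those most like DUSP6 were ITPRID2 (0.939), PHLDA1 (0.934), MLF1 (0.932), GTF3A (0.931) and RPL4 (0.929). None of these was among the 5 most like either gene in nuclear nascent RNA. Among the members in these 16 libraries, SPRY4 had an r of 0.85 with DUSP5, 0.72 with SPRY2 and -0.01 with SPRY1, and DUSP6 had an r of 0.82 with SPRY2 and -0.59 with SPRED3. These libraries share controls, points and depth, and the values are descriptions.

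The ratio of the mean whole-cell nascent level to the mean whole-cell input level was 0.453 for DUSP5 in asynchronous cells and between 1.25 and 1.68 in the 5 windows. For DUSP6 it was 0.617 in asynchronous cells and 1.51 to 1.84 in the windows, and for SPRY4 0.397 in asynchronous cells and 1.10 in T0-2. The mean SPRY4 levels were also close in T8-10 (0.634 RPKM nascent, 0.692 input). For SPRY2 the nascent and input means were 9.68 and 32.7 RPKM in asynchronous cells, and 36.8 and 30.7 in T0-2. The shift was thus not particular to T0-2 or to DUSP5, DUSP6 and SPRY4. The asynchronous ratios rest on 2 nascent libraries that differed widely: taken singly over the mean input level, replicates 1 and 2 gave 0.192 and 0.714 for DUSP5, 0.194 and 1.04 for DUSP6, and 0.137 and 0.657 for SPRY4. The tables were scaled separately, so only the change of a ratio between groups can be read, and it was not tested.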
